A study of Mus musculus with 18 samples.

Results

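MEFs that had been cultured in Scm and were then kept in Rcm for 24 h (S-Rcm 24 h, 3 libraries) were compared with MEFs kept in Scm (3 libraries). These 6 libraries were taken by their labels from the 18 RNA-seq libraries of the series. MEFs are mouse embryonic fibroblasts, here a wild-type (WT) line obtained from a commercial cell bank, so that all groups share 1 cell line. Scm and Rcm are the same high-glucose medium with antibiotics, completed with 1 of 2 lots of fetal bovine serum: S-FBS in Scm left MEFs sensitive to ferroptosis, and R-FBS in Rcm made them resistant. S-Rcm 12 h (3 libraries) and Rcm (3 libraries, MEFs kept in Rcm) were used as reference points for the same genes. For some of them, levels in R-Scm 12 h and R-Scm 24 h, MEFs moved from Rcm to Scm, are also given (3 libraries each). The comparison asks which mRNAs had changed a day after sensitive cells received the serum of resistant cells. The titles label the Scm and Rcm libraries 0 h. The change of serum therefore cannot be told apart from the change of medium and the time in culture that followed it. The labels do not state that the libraries of a group came from separate cultures, so that p-values measure the spread between libraries, which may be technical.

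Ferroptosis is a form of cell death driven by iron-dependent peroxidation of membrane lipids, and it is held back by the lipid peroxide reductase GPX4. Serum supplies cultured fibroblasts with lipoproteins, fatty acids and growth factors. When cells lack sterol, the transcription factor SREBP2 is cleaved and switches on the genes of cholesterol synthesis, whereas SREBP1 acts mainly on fatty acid synthesis and desaturation. Serum growth factors and lipids also reach the actin cytoskeleton, through which the coactivators MRTF and YAP act on contractile and matricellular genes.

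The total counts of the 6 libraries ran from 14534906 to 18717939. The fibroblast markers Vim (3335 to 3931 CPM, counts scaled to a common library size), Pdgfra (338 to 379 CPM) and Col1a1 (1056 to 2363 CPM) were high, whereas Lum and Fap had 0 to 2 counts and Dcn 2.41 to 3.99 CPM. Of the markers of other cell types, the epithelial and muscle markers had at most 5 counts in any of the 6 libraries and the endothelial ones at most 8. Cd68, a macrophage and lysosome gene, had 31 to 56 counts, and the neuronal gene Map2 had 169 to 329. Replicate 1 of S-Rcm 24 h stood apart from its group: the chi-square statistic per degree of freedom was 23.6 and 25.9 against replicates 2 and 3, and 10.7 between those, while pairs of Scm libraries gave 9.33 to 13.4. In bulk RNA a difference in the number of cells of a kind and a difference in RNA per cell cannot be told apart.

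A gene was called a DEG when its absolute log2 fold change was above 0.58 (1.5-fold) and its Benjamini-Hochberg adjusted p was under 0.05 in edgeR's quasi-likelihood test over 15381 genes. After 24 h in Rcm, 52 gene entries were DEGs, 0.338% of those tested, of which 34 (0.221%) were higher and 18 (0.117%) lower. Over all genes tested the log2 fold change had a median of 0.0061 and was above 0 for 51.2%. The libraries of the groups did not overlap for 52 of the 52 entries and for 19.5% of all genes tested. The entries were picked by a test on these same libraries, so that this gives no separate support. Of the 34 higher entries, 8 averaged under 10 CPM in both groups. Replicate 1 of S-Rcm 24 h was the highest of its group in 21 of the 34 higher entries and the lowest in 10 of the 18 lower ones. Leaving out 1 library reduced the number of DEGs to between 6 (without replicate 1 of Scm) and 28 (without replicate 2 of S-Rcm 24 h), and it was 12 without replicate 1 of S-Rcm 24 h. Without that replicate 40 of the 51 DEGs with a gene name did not pass, and the 11 that passed were Stra6, Angptl4, Ccn2, Aldh1a7, Igfbp7, Aqp1, C3, Dynap, Slc27a1, Slc6a4 and Egr3. Of the 51, 5 passed in every one of the 6 fits that left out a library, namely Angptl4, Aldh1a7, Aqp1, Slc27a1 and Slc6a4, and 15 passed in none.

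**Figure D1:**
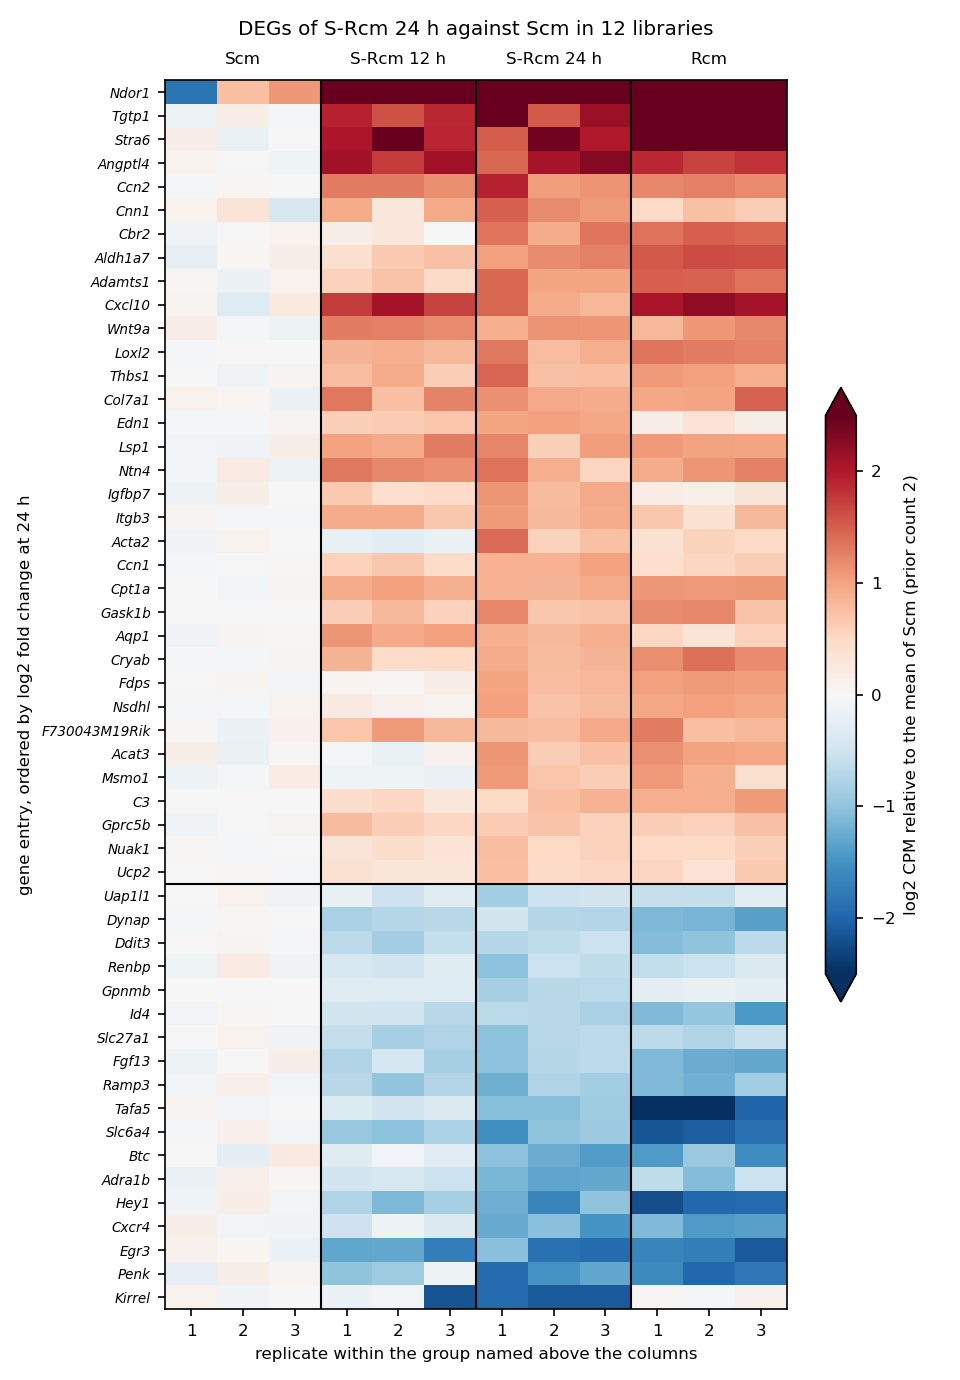
Heat map of the 52 DEG entries, with entries as rows and libraries as columns. The columns include the libraries of Scm, those of Rcm and those from both times after the exchange into Rcm. Colour gives log2 CPM relative to the mean of the Scm libraries, with the scale stopped at -2.5 and 2.5. The 34 higher entries are above the 18 lower ones, and replicate 1 of S-Rcm 24 h holds the highest value of its group in 21 of the 34.

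Angptl4 encodes angiopoietin-like 4, a secreted inhibitor of lipoprotein lipase and a target of the fatty acid sensing PPAR receptors. Its gene lies at chr17:33773750-33781830 on the minus strand (GRCm38). It had 8.83, 8.32 and 7.63 CPM in Scm and 22.5, 34.6 and 40.9 CPM in S-Rcm 24 h. All libraries of S-Rcm 24 h were above those of Scm, and replicate 1 was the lowest of them. The log2 fold change was 1.98 (SE 0.19, edgeR adjusted p = 0.000139), and it was 2.19 without replicate 1. Angptl4 was already at 35.7, 28.1 and 35.6 CPM at 12 h, and at 30.8, 27 and 29.2 CPM in Rcm, so that levels at 24 h overlapped both groups. The difference from 12 h was -0.02 on the log2 scale (edgeR adjusted p = 0.991).

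The list of PPAR targets and fatty acid oxidation genes held 23 tested members. Of these 3 rose (0.221% of all genes), 0 fell (0.117%) and 20 did not pass. The median log2 fold change was 0.17, with 14 members above 0, where 51.2% of all genes were. Besides Angptl4, the members that rose were Cpt1a, which brings long-chain fatty acids into mitochondria, and Ucp2, a carrier of the inner mitochondrial membrane. Cpt1a had 64.3, 61.8 and 67.3 CPM in Scm and 118, 117 and 123 CPM at 24 h (log2 fold change 0.89, SE 0.14, edgeR adjusted p = 0.0136). Ucp2 rose by 0.59 (SE 0.097, adjusted p = 0.0151), from 48.5 to 50.7 CPM in Scm to 69.4 to 83.5 CPM at 24 h; without replicate 1 of S-Rcm 24 h it was 0.50 (edgeR adjusted p = 0.0711) and met neither threshold. The lipid droplet gene Plin4 had a log2 fold change of -1.50 (edgeR adjusted p = 0.225) at 0.569 to 2.83 CPM. Vldlr, the very low density lipoprotein receptor, had -0.59 (edgeR adjusted p = 0.0823). Fabp4, a PPAR target that also marks adipocytes, had 0.214 to 0.624 CPM in Scm and 1.01 to 1.2 CPM at 24 h (1.25, edgeR adjusted p = 0.329), and the adipocyte genes Adipoq, Lep and Cfd were at 0 counts in all 6 libraries.

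Slc27a1, at chr8:71568882-71587302 on the plus strand, encodes the fatty acid transport protein FATP1. It had 103, 109 and 97.7 CPM in Scm and 50.5, 63.5 and 64.5 CPM in S-Rcm 24 h. The groups were well apart, and the gene fell by 0.80 on the log2 scale (SE 0.11, edgeR adjusted p = 0.00478). It was also at 58.2 to 68.1 CPM at 12 h. A carrier for fatty acid uptake was thus lower while Cpt1a was higher in the same libraries.

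Sterol synthesis was the metabolic group with the most uniform direction. The list of 21 cholesterol biosynthesis genes, all of them tested, had a median log2 fold change of 0.59, with 3 DEGs, all higher (0.221% of all genes). Of its members, 18 were higher at an unadjusted p under 0.05, compared with 4.79% of all genes. Between Scm and S-Rcm 24 h, 20 of the 21 showed no overlap, compared with 19.5% of all genes. The summed level of the list was 2511 to 2559.6 CPM in Scm and 3500.2 to 4210.4 CPM at 24 h. By library, the median member stood 0.78, 0.48 and 0.49 above the mean of Scm in replicates 1 to 3 of S-Rcm 24 h, and 14 of the 21 members were highest in replicate 1. Without that library the median was 0.49 and 0 members were DEGs, and 0 were also called without any one of the Scm libraries.

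The 3 members that rose act at different steps. Fdps makes farnesyl diphosphate, the last shared precursor of sterols and prenyl groups. It had 188, 198 and 179.5 CPM in Scm and 370.5, 322 and 336 CPM in S-Rcm 24 h (log2 fold change 0.86, SE 0.15, edgeR adjusted p = 0.0167). Its transcripts share 21.9% of their 75-base words with the entry Gm43738, and with the counts of overlapping entries summed the log2 fold change was 0.89 (edgeR adjusted p = 0.0167). Msmo1 and Nsdhl encode enzymes that remove the methyl groups at carbon 4 of the sterol ring. Msmo1 had 126, 133 and 157 CPM in Scm and 287, 224 and 213 CPM at 24 h (log2 fold change 0.80, SE 0.15, edgeR adjusted p = 0.0223). Nsdhl had 58.4, 58.9 and 64.5 CPM in Scm and 124, 99.5 and 104 CPM at 24 h (log2 fold change 0.85, SE 0.14, edgeR adjusted p = 0.0163). For each of these genes replicate 1 was the highest of the 24 h libraries, yet the other libraries of S-Rcm 24 h were also above every Scm library. Acat3, a cytosolic acetyl-CoA acetyltransferase gene outside the list, rose by 0.84 (SE 0.16, edgeR adjusted p = 0.0254), from 15.3 to 19.0 CPM to 26.6 to 37.3 CPM, and was 0.68 without replicate 1 of S-Rcm 24 h (edgeR adjusted p = 0.153). It shares 37.7% of its 75-base words with Acat2, so that reads may have been split between them, and Acat2 itself had a log2 fold change of 0.66 (edgeR adjusted p = 0.226).

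The remaining members of the pathway did not pass the test. Dhcr7, which performs the last step of one branch and whose substrate 7-dehydrocholesterol traps lipid radicals, had 14.0, 14.9 and 15.4 CPM in Scm and 39.6, 28.4 and 29.5 CPM at 24 h, the largest fold in the list (log2 1.14, edgeR adjusted p = 0.155). Cyp51 (0.69, adjusted p = 0.0577), Hsd17b7 (0.77, adjusted p = 0.0823) and Mvd (0.78, adjusted p = 0.148) were near them in edgeR's test. The smallest value belonged to Sqle, squalene epoxidase, with 257 to 268 CPM in Scm and 273 to 334 CPM at 24 h (0.19, edgeR adjusted p = 0.843). With DESeq2 on 18 libraries 7 members of the list were DEGs, among them Cyp51, Dhcr7, Hsd17b7 and Mvd.

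**Figure D2:**
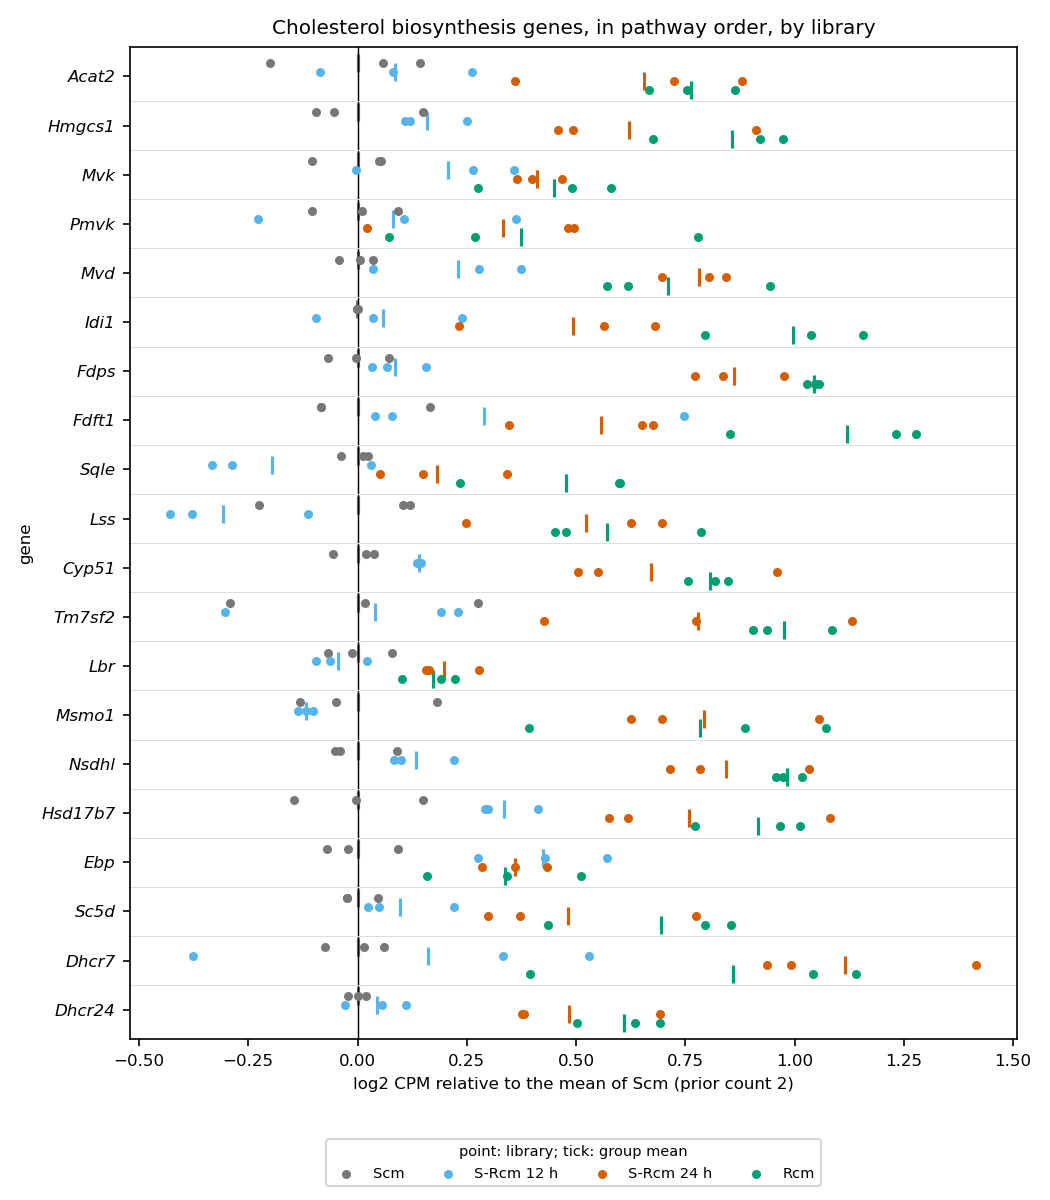
20 cholesterol biosynthesis genes (vertical axis, from the first step at the top) with log2 CPM relative to the mean of Scm on the horizontal axis; points are libraries, ticks are group means, and grey is Scm, blue S-Rcm 12 h, orange S-Rcm 24 h and green Rcm. S-Rcm 24 h lies to the right of every Scm library for 19 of the 20 genes, and the list's median log2 fold change of 0.59 compares with 0.098 at 12 h and 0.76 in Rcm. Over all genes tested, 19.5% did not overlap in either direction.

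At 12 h the list stood near Scm. The list's median was 0.098 at 12 h and 0.76 in Rcm, each against the same Scm libraries, and the log2 fold change was larger at 24 h than at 12 h for 20 of the 21 members (47.2% of all genes). In the direct test of 24 h against 12 h (24 DEGs, 0.156% of genes, with 10 higher, 0.065%, and 14 lower, 0.091%), Msmo1 was higher at 24 h by 0.92 on the log2 scale (SE 0.15, edgeR adjusted p = 0.0167), and at 12 h it had 127, 129 and 126 CPM. Fdps was higher at 24 h by 0.78 (SE 0.15, adjusted p = 0.0439) and Acat3 by 0.88 (SE 0.16, adjusted p = 0.0335) in edgeR's test. When 1 library was left out, Msmo1 passed this test in 2 of 6 fits, Acat3 in 1 and Fdps in 0, and the 10 higher DEGs became 2 without replicate 1 of S-Rcm 24 h and 1 to 3 without a library of S-Rcm 12 h. Nsdhl differed by 0.72 with an edgeR adjusted p of 0.0522. Mid1ip1, a regulator of acetyl-CoA carboxylase in fatty acid synthesis, was also higher at 24 h than at 12 h, by 1.23 (SE 0.21, edgeR adjusted p = 0.0215). Mid1ip1 passed in 1 of 6 such fits. It had 26.0, 18.5 and 18.8 CPM at 12 h and 47.9, 50.1 and 50.7 CPM at 24 h, whereas its log2 fold change against Scm was 0.74 (edgeR adjusted p = 0.187).

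No regulator or receptor of sterol balance passed the test. In the list of sterol sensing and uptake genes, 0 of 15 members were DEGs and the median was 0.11, with 5 members higher and 1 lower at an unadjusted p under 0.05 (4.79% and 3.32% of all genes). Srebf1 had 89.9 to 94.7 CPM in Scm and 83.7 to 93.4 CPM at 24 h (log2 fold change -0.046, edgeR adjusted p = 0.97), and Srebf2 had 438 to 470.2 CPM in Scm and 485 to 603 CPM at 24 h (0.32, adjusted p = 0.555). Insig1, whose product retains the SREBP complex in the endoplasmic reticulum, had 0.53 (edgeR adjusted p = 0.371).

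Fatty acid synthesis and activation genes gave 0 DEGs among 23 tested, with a median of 0.23 and 20 members above 0 (51.2% of all genes). Scd1, the stearoyl-CoA desaturase that makes monounsaturated fatty acids, had 283, 257 and 272 CPM in Scm and 432, 335 and 348 CPM in S-Rcm 24 h. The libraries did not overlap, but the log2 fold change of 0.46 (SE 0.19) had an edgeR adjusted p of 0.483, and it was 0.34 without replicate 1 of S-Rcm 24 h. Scd2, its paralogue, had 289.7 CPM in replicate 1 of Scm against 984 and 1047 CPM in the other libraries of that group, and 1844, 1203 and 1255 CPM at 24 h. Its log2 fold change of 0.89 (edgeR adjusted p = 0.846) dropped to 0.50 without that Scm library. Fads2, the delta-6 desaturase of polyunsaturated fatty acids, had 186 to 191 CPM in Scm and 268 to 361 CPM at 24 h (0.69, edgeR adjusted p = 0.0931).

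Genes that govern ferroptosis directly did not pass. Of 26 tested regulators 0 were DEGs and the median was 0.072. Gpx4 had 108, 124 and 119 CPM in Scm and 126, 114 and 124 CPM at 24 h (log2 fold change 0.057, SE 0.08, edgeR adjusted p = 0.947). Slc7a11, the cystine transporter subunit, varied widely within groups, with 30.4, 47.4 and 54.8 CPM in Scm and 22.8, 53.8 and 36.4 CPM at 24 h (-0.23, SE 0.39, edgeR adjusted p = 0.957). Among 18 tested selenoprotein genes 0 were DEGs and the median was 0.11. Selenow had 0.71 (edgeR adjusted p = 0.0867), and Sephs2, which makes the selenium donor of selenoprotein synthesis, had -0.47 (edgeR adjusted p = 0.0684). Apoh, the gene of the serum protein apolipoprotein H, had 0 to 2 counts in Scm and 2 to 4 counts at 24 h and was not tested.

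Among lists with more than 1 tested member the largest median, 0.95, belonged to 13 contractile and SRF or YAP response genes. Of these 4 were DEGs, all higher (0.221% of all genes), 10 were higher at an unadjusted p under 0.05 (4.79% of all genes), and 11 did not overlap between groups (19.5% of all genes). By library the median member stood 1.12, 0.68 and 0.76 above the mean of Scm in replicates 1 to 3 of S-Rcm 24 h. Of the 13 members, 8 were highest in replicate 1. In R-Scm 24 h, MEFs moved from Rcm to Scm, the median member stood 0.63, 0.77 and 0.84 above the mean of Scm. In Rcm it stood 0.38, 0.55 and 0.54 above that mean, so that a higher level was not particular to the exchange into Rcm. Without replicate 1 of S-Rcm 24 h the list's median was 0.89, with 1 DEG (Ccn2). The same count was 0 without replicate 1 of Scm and 0 without replicate 3 of Scm. Des, Myod1, Myog and Actc1, which mark muscle, had 0 to 5 counts in the 6 libraries.

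Ccn2 and Ccn1 encode secreted matricellular proteins that are widely used as readouts of YAP. Ccn2 had 159, 168 and 161 CPM in Scm and 614, 337 and 354 CPM in S-Rcm 24 h (log2 fold change 1.42, SE 0.21, edgeR adjusted p = 0.00871). Replicate 1 was far above the others, and without it the log2 fold change was 1.09 (edgeR adjusted p = 0.0153). Ccn1 had 389, 398 and 409 CPM in Scm and 725, 731 and 795 CPM at 24 h, a tight pair of groups (0.91, SE 0.17, edgeR adjusted p = 0.0223). The smooth muscle type actin gene Acta2, at chr19:34241090-34255590 on the minus strand, had 706, 801 and 745 CPM in Scm and 1994, 1117 and 1249 CPM at 24 h (0.95, SE 0.2, edgeR adjusted p = 0.0425). Without replicate 1 its log2 fold change was 0.66 and the call was lost (edgeR adjusted p = 0.187). Calponin gene Cnn1 had 3.1, 3.67 and 2.2 CPM in Scm and 8.49, 6.76 and 6.26 CPM at 24 h (1.26, SE 0.23, edgeR adjusted p = 0.0223). Ccn1 and Cnn1 passed in 0 of the 6 fits that left out a library. Their log2 fold changes there were 0.87 to 0.94 and 1.08 to 1.42.

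Members of the list that did not meet both thresholds lay on the same side. Tpm1, a tropomyosin gene, had 772 to 861 CPM in Scm and 1115 to 1149 CPM at 24 h, with a log2 fold change of 0.45 below the fold threshold although its edgeR adjusted p was 0.0485. Tagln (0.86, adjusted p = 0.0777), Myl9 (1.13, adjusted p = 0.0931), Mylk (0.98, adjusted p = 0.102) and Ankrd1 (1.24, adjusted p = 0.268) did not pass edgeR's test. Vcl (0.092) and Srf (0.23) were among the smallest values.

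For Acta2 the rise came after 12 h. At 12 h it had 659, 616 and 668 CPM, below Scm, and the 24 h libraries were higher by 1.17 on the log2 scale (SE 0.2, edgeR adjusted p = 0.0215), a difference that passed in 2 of the 6 fits that left out a library. In Rcm it had 975 to 1114 CPM, so that the group mean at 24 h was above that of Rcm, with a log2 difference of 0.47 that did not pass (edgeR adjusted p = 0.584). Mean levels at 24 h were above those in Rcm for 12 of the 13 members, where 48.8% of all genes had a log2 difference above 0. Ccn2, by contrast, was already at 363 to 395 CPM at 12 h, and the difference between 24 h and 12 h was 0.18 (edgeR adjusted p = 0.879). Csrp1, another gene of the actin cytoskeleton and no member of the list, was higher at 24 h than at 12 h by 0.83 (SE 0.11, edgeR adjusted p = 0.00182), and passed in 6 of 6 such fits.

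**Figure D3:**
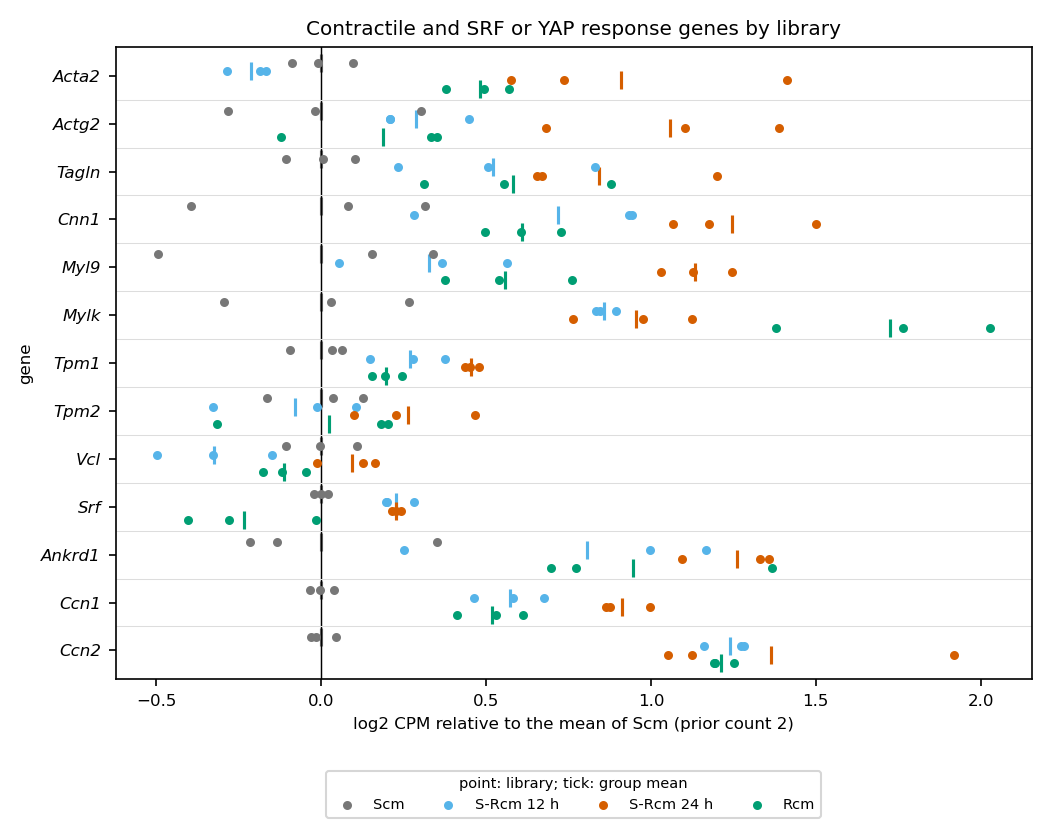
Each of the 13 contractile and SRF or YAP response genes (vertical axis) with log2 CPM relative to the mean of Scm on the horizontal axis; points are libraries, ticks are group means, and grey is Scm, blue S-Rcm 12 h, orange S-Rcm 24 h and green Rcm. The right-most S-Rcm 24 h point of Acta2 and of Ccn2 is replicate 1 (1994 and 614 CPM), and 8 of the 13 genes are highest in that library.

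Promoters of the cholesterol and contractile lists were read to show what their members, DEGs or not, hold upstream of their start. The windows are the 250 bases before the RefSeq start (GRCm38.p6), each written 5′ to 3′ on the gene's strand. CCAAT, the letters bound by the factor NF-Y, was searched on both strands in the cholesterol genes, and 15 of the 16 with a window held it, compared with 33.8% of all 32851 windows. GGAATG, the letters of TEAD sites, was searched in the same way in the contractile list, and 6 of the 10 with a window held it, compared with 12.6% of all windows. Crosswise, 0 of the 16 cholesterol windows held GGAATG and 6 of the 10 contractile windows held CCAAT. Of the cholesterol genes with CCAAT only Msmo1 and Nsdhl were DEGs, and of the contractile genes with GGAATG only Acta2 and Ccn1. The window of Cnn1, also a DEG of the contractile list, held no GGAATG. Of the 38 DEGs with a window, 14 held CCAAT and 9 held GGAATG. The motifs were chosen after the expression values were seen, and a match is a description of the letters, not a bound site. 4 windows, from the DEGs of each list that held its motif, are shown, with each match in capitals (ATTGG and CATTCC are the same motifs on the other strand):
Nsdhl, chrX:72918271-72918520, plus strand: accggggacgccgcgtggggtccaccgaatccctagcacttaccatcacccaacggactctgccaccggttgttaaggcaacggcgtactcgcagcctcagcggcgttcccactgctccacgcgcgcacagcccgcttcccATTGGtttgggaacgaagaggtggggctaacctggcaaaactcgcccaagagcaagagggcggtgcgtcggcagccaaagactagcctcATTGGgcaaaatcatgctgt
Msmo1, chr8:64733579-64733828, minus strand: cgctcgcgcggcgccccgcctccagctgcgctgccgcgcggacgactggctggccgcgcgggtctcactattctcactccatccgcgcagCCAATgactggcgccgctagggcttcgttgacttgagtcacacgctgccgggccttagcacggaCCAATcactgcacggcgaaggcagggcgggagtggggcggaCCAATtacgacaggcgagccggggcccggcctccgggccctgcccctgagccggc
Acta2, chr19:34255374-34255623, minus strand: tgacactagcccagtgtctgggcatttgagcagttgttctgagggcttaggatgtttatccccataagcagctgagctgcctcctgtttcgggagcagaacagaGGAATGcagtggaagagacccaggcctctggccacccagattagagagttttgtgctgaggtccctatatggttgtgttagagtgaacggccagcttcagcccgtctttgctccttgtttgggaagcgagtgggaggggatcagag
Ccn1, chr3:145649986-145650235, minus strand: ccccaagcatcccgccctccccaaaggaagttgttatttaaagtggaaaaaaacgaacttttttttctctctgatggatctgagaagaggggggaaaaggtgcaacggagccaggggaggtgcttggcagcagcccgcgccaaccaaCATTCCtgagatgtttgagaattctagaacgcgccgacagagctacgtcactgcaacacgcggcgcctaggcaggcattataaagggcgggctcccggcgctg
The window of Nsdhl held 2 matches to CCAAT and that of Msmo1 held 3, while Acta2 and Ccn1 held 1 match each to GGAATG. In the GENCODE annotation Msmo1 (start at chr8:64733792) and Acta2 (start at chr19:34255590) begin upstream of the RefSeq start used here. Their marked matches therefore lie inside the gene as annotated there.

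Several DEGs encode secreted or matrix proteins. Thbs1, thrombospondin 1, had 812, 753 and 841 CPM in Scm and 2184, 1330.1 and 1356 CPM at 24 h (log2 fold change 1.02, SE 0.18, edgeR adjusted p = 0.0167). Replicate 1 was far above the others, and without it the value was 0.74 (edgeR adjusted p = 0.0711). Loxl2, which cross-links collagen, rose by 1.03 (adjusted p = 0.0155), Col7a1 by 1.02 (adjusted p = 0.0194) and the matrix protease gene Adamts1 by 1.15 (adjusted p = 0.0155) in edgeR's test. Without replicate 1 of S-Rcm 24 h, Loxl2 (0.85) and Adamts1 (0.98) both had an edgeR adjusted p of 0.0711, and Col7a1 (0.95) had 0.0888. Loxl2 shares 42.7% of its 75-base words with Gm21451. Edn1, the precursor of the vasoconstrictor endothelin 1, had 12.9, 13.2 and 14.1 CPM in Scm and 26.8, 27.3 and 26.1 CPM at 24 h, with little spread in either group (1.0, SE 0.17, edgeR adjusted p = 0.0167). Even so, Edn1 passed in 0 of the 6 fits that left out a library, with log2 fold changes of 0.97 to 1.03, and Col7a1 and Itgb3 also passed in 0. In Rcm Edn1 had 14.9 to 16.9 CPM, although the difference of 0.77 from S-Rcm 24 h did not pass (edgeR adjusted p = 0.089). Edn1 had 41.3, 44.2 and 72.5 CPM in R-Scm 12 h and 24.6, 32.4 and 34 CPM in R-Scm 24 h. Thbs1 had 1704 to 1735 CPM in R-Scm 24 h. For both, a level above Scm was thus not particular to the exchange into Rcm. Mean levels of Loxl2 (61.5 CPM), Col7a1 (6.64 CPM) and Adamts1 (62.1 CPM) in R-Scm 24 h lay between those of Scm and S-Rcm 24 h. The integrin gene Itgb3 (0.95), the laminin-related gene Ntn4 (0.98) and Nuak1 (0.62), a kinase of the AMPK family, rose against Scm as well. So did Gask1b (0.89, and 0.70 without replicate 1 of S-Rcm 24 h with an edgeR adjusted p of 0.112) and the orphan receptor gene Gprc5b (0.64). The list of collagens and matrix genes had 0 DEGs among 17, a median of 0.30 and 15 members above 0 (51.2% of all genes). Its member Col3a1 had 279 to 299.5 CPM in Scm and 542 to 675 CPM at 24 h (1.03, edgeR adjusted p = 0.313).

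Igfbp7, which encodes a secreted binding protein of insulin-like growth factors, had 12.1, 14.6 and 13.1 CPM in Scm, 28.4, 22.9 and 25.8 CPM at 24 h and 15.0, 14.4 and 16.5 CPM in Rcm. The change was 0.95 on the log2 scale against Scm (SE 0.13, edgeR adjusted p = 0.00478) and 0.75 against Rcm (SE 0.13, edgeR adjusted p = 0.0239). It passed against Scm in 5 of the 6 fits that left out a library, and not without replicate 1 of Scm (edgeR adjusted p = 0.0597). Against Rcm it passed in 1 of 6, with log2 differences of 0.67 to 0.82 and edgeR adjusted p of up to 0.153. It was the single DEG of 8 tested genes of the IGF system, whose median was -0.01.

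Aldh1a7, an aldehyde dehydrogenase gene related to the retinaldehyde dehydrogenases, had 4.17, 4.99 and 5.29 CPM in Scm and 9.82, 11 and 11.6 CPM in S-Rcm 24 h (log2 fold change 1.17, SE 0.13, edgeR adjusted p = 0.000683). Its level was 14.2 to 15 CPM in Rcm and 13.1 to 15.9 CPM in R-Scm 24 h, so that a level above Scm was not particular to the exchange into Rcm. Stra6, the cellular receptor for retinol-binding protein, had 0.642, 0.485 and 0.55 CPM in Scm and 1.81, 3.46 and 2.59 CPM at 24 h (2.21, SE 0.41, edgeR adjusted p = 0.0223). Stra6 was the single DEG among 9 tested genes of retinoid response and handling, whose median was 0.19. Cbr2, a carbonyl reductase gene, had 7.17, 7.63 and 8.18 CPM in Scm and 19.4, 14.7 and 19.4 CPM at 24 h (1.22, SE 0.21, edgeR adjusted p = 0.0165). At 12 h it was still at 7.55 to 9.36 CPM, lower than at 24 h by 1.07 (SE 0.21, edgeR adjusted p = 0.0439), a difference that passed in 0 of the 6 fits that left out a library. The water channel gene Aqp1 had 18, 19.9 and 19.4 CPM in Scm and 35.3, 33.7 and 36.1 CPM at 24 h (0.88, SE 0.098, edgeR adjusted p = 0.000683), with 37.1 to 40.9 CPM at 12 h and 24.0 to 28.7 CPM in Rcm.

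No member of the interferon-stimulated list passed the test. Of 44 members 0 were DEGs, 43 had a log2 fold change above 0 (51.2% of all genes), the median was 0.77 and 23 were higher at an unadjusted p under 0.05 (4.79% of all genes). Replicate 1 was the highest 24 h library for 30 of the 44, and without it the median was 0.62. Against the same Scm libraries the median was 1.01 at 12 h and 2.65 in Rcm. In the direct test against Rcm (34 DEGs, 0.221% of genes, with 10 higher, 0.065%, and 24 lower, 0.156%), 14 members were lower at 24 h than in Rcm, 0 were higher, and the median difference was -1.7. The 14 became 9 without replicate 1 of S-Rcm 24 h, 0 without replicate 2 or 3 of that group or replicate 2 of Rcm, 3 and 4 without replicates 1 and 3 of Rcm, and 0 under the replicate block by column number, while the median stayed between -1.79 and -1.6 in these fits; DESeq2 on 18 libraries called 34. Isg15 had 5.68 to 7.01 CPM in Scm, 9.78 to 10.9 CPM at 24 h and 31.5 to 49.4 CPM in Rcm. It differed from Rcm by -1.91 (SE 0.3, edgeR adjusted p = 0.0239), and from Scm by 0.70 (edgeR adjusted p = 0.581).

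Genes outside that list but known as interferon targets were among the DEGs. Cxcl10, a chemokine for T cells, had 5.72, 4.3 and 6.46 CPM in Scm and 14.8, 10.4 and 9.68 CPM at 24 h (log2 fold change 1.08, SE 0.19, edgeR adjusted p = 0.0165), and its value without replicate 1 was 0.87 (edgeR adjusted p = 0.0797). At 12 h it had 17.7 to 23.3 CPM and in Rcm 22.8 to 25.8 CPM, and the 24 h libraries differed from Rcm by -1.04 (SE 0.17, edgeR adjusted p = 0.0239), which passed in 2 of the 6 fits that left out a library. Tgtp1, an interferon-induced GTPase gene, had 0.374 to 0.485 CPM in Scm and 3.37, 1.45 and 2.28 CPM at 24 h (2.47, SE 0.46, edgeR adjusted p = 0.0223; 2.12 and 0.121 without replicate 1). It shares 74.6% of its 75-base words with Tgtp2, and the counts of the pair are uncertain. The complement gene C3 had 25.5 to 25.9 CPM in Scm and 36.4, 43.6 and 46.9 CPM at 24 h (0.72, SE 0.13, edgeR adjusted p = 0.0201). In the list of chemokines and acute phase genes 2 of 14 tested members were DEGs, both higher (0.221% of all genes), with a median of 0.49. Cxcl1 had 3.33 to 4.39 CPM in Scm and 8.41 to 9.72 CPM at 24 h (1.20, edgeR adjusted p = 0.0577).

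**Figure D4:**
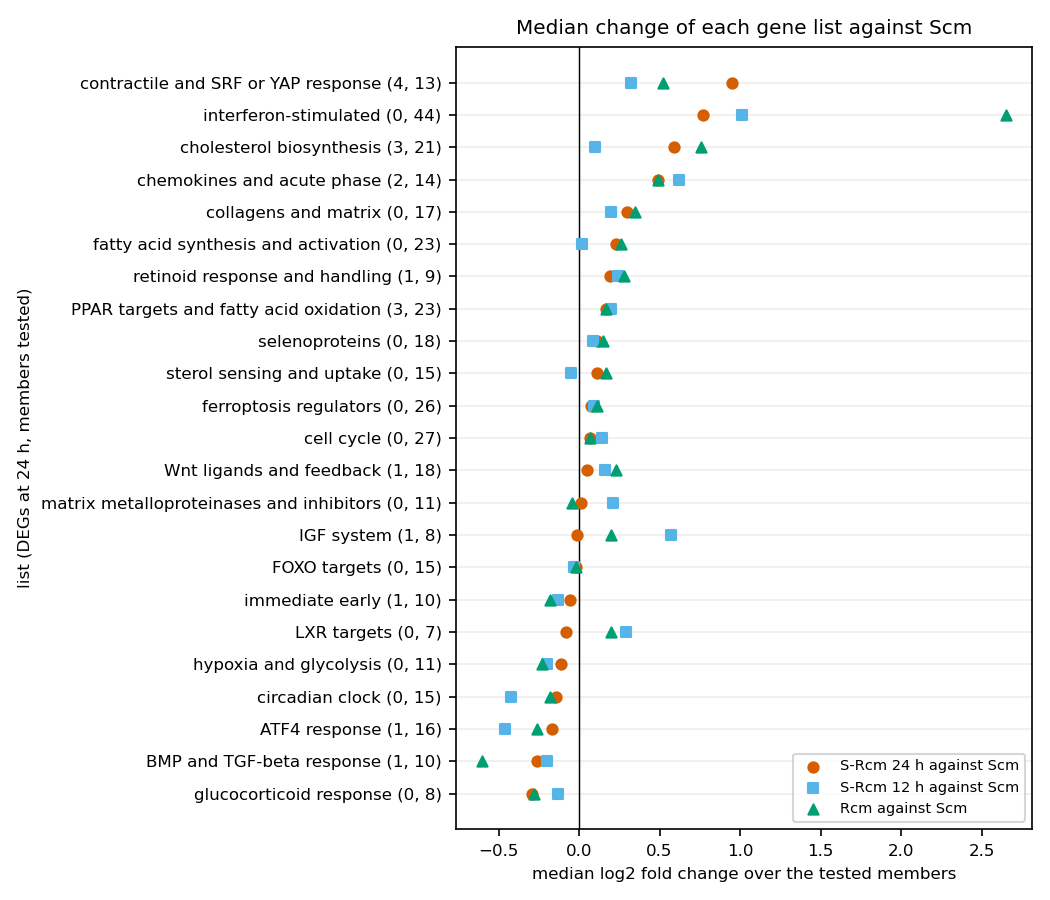
Median log2 fold change against Scm (horizontal axis) of each gene list (vertical axis, with the number of DEGs at 24 h and the number of members tested in brackets) for S-Rcm 24 h (circles), S-Rcm 12 h (squares) and Rcm (triangles), which share the same Scm libraries. At 24 h the contractile list is farthest right (0.95), the interferon-stimulated list lies at 0.77 compared with 2.65 in Rcm, and cholesterol biosynthesis lies at 0.59 compared with 0.098 at 12 h.

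Of the 18 lower DEGs, 2 lay between Scm and Rcm and met both thresholds against each. Dynap also lay between them, but its log2 difference of 0.57 from Rcm (edgeR adjusted p = 0.0239) was below the fold threshold. Slc6a4, the serotonin transporter gene, had 14.7, 16.6 and 14.6 CPM in Scm and 5.18, 7.54 and 8.1 CPM at 24 h (log2 fold change -1.14, SE 0.15, edgeR adjusted p = 0.00425). In Rcm it was lower still, at 3.37 to 4.11 CPM, and the 24 h libraries were above Rcm by 0.91 (SE 0.16, edgeR adjusted p = 0.0239), which passed in 2 of the 6 fits that left out a library. Tafa5, which encodes a small secreted protein, lay between the serum states in the same way, with 12.0 to 13.2 CPM in Scm, 5.96 to 6.77 CPM at 24 h and 2.0 to 3.05 CPM in Rcm. It fell by 1.02 against Scm (SE 0.17, edgeR adjusted p = 0.0136) and was 1.38 above Rcm (SE 0.18, edgeR adjusted p = 0.00831). It passed in 1 of 6 such fits against Scm and in 4 of 6 against Rcm.

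Penk, the proenkephalin gene, had 8.77, 11.2 and 10.6 CPM in Scm and 2.59, 3.52 and 4.05 CPM at 24 h (log2 fold change -1.59, SE 0.25, edgeR adjusted p = 0.0136), and its value without replicate 1 of S-Rcm 24 h was -1.43 (edgeR adjusted p = 0.0634). Hey1, a transcriptional repressor downstream of Notch, had 8.29, 9.98 and 8.45 CPM in Scm and 3.73, 2.74 and 4.37 CPM at 24 h (-1.30, SE 0.22, edgeR adjusted p = 0.0163). Egr3, an immediate early transcription factor, had 47.1, 45.3 and 39.5 CPM in Scm and 21.2, 12.0 and 11.5 CPM at 24 h (-1.56, SE 0.3, edgeR adjusted p = 0.027). It was the single DEG of 10 tested immediate early genes, whose median was -0.056. Its relative Egr1 had 103 to 115 CPM in Scm and 135 to 139 CPM at 24 h (0.33, edgeR adjusted p = 0.95).

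The chemokine receptor gene Cxcr4 fell by 1.39 (SE 0.28, adjusted p = 0.0389), the adrenergic receptor gene Adra1b by 1.28 (SE 0.24, adjusted p = 0.0223) and the EGF receptor ligand gene Btc by 1.26 (SE 0.22, adjusted p = 0.0165) in edgeR's test, all at under 10 CPM. Ramp3, a partner of calcitonin-family receptors, was more abundant, with 142, 164 and 143 CPM in Scm and 63.7, 88.7 and 81.2 CPM at 24 h (-0.94, SE 0.16, edgeR adjusted p = 0.0167). Gpnmb, a lysosomal glycoprotein gene, had 116 to 119 CPM in Scm and 66.0 to 73.8 CPM at 24 h (-0.73). Ddit3, the stress factor CHOP, had 47.5 to 51.6 CPM in Scm and 29.9 to 33.8 CPM at 24 h (-0.63, SE 0.13, edgeR adjusted p = 0.0389), and it was the single DEG of 16 ATF4 response genes (median -0.17). Further named DEGs that fell were Uap1l1 (-0.60), Dynap (-0.63), Renbp (-0.72) and the fibroblast growth factor family gene Fgf13 (-0.80). When 1 library was left out, Cxcr4, Adra1b, Ddit3, Uap1l1 and Fgf13 passed in 0 of 6 fits. Btc, Ramp3, Dynap and Renbp passed in 1, and Gpnmb in 2.

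Id4, an inhibitor of basic helix-loop-helix factors, had 20.2 to 22 CPM in Scm and 12.0 to 13.3 CPM at 24 h (log2 fold change -0.73, SE 0.14, edgeR adjusted p = 0.0255), and it was the single DEG of 10 BMP and TGF-beta response genes (median -0.26). Id4 passed in 0 of the 6 fits that left out a library, with log2 fold changes of -0.77 to -0.69. Its relatives Id1 (-0.50), Id2 (-0.57) and Id3 (-0.52) did not pass the edgeR test, with adjusted p of 0.582, 0.0684 and 0.326. The metallothionein gene Mt1, in the glucocorticoid response list (0 of 8 DEGs, median -0.29), had -0.66 (edgeR adjusted p = 0.0739).

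Several lists gave no DEG and medians between -0.14 and 0.065. These were the cell cycle (27 tested, median 0.065), FOXO targets (15, median -0.017), hypoxia and glycolysis (11, median -0.11), the circadian clock (15, median -0.14), matrix metalloproteinases and inhibitors (11, median 0.012) and LXR targets (7, median -0.083, which was above 0 without replicate 1 of either group). The Wnt list had 1 DEG of 18, the ligand gene Wnt9a, which rose by 1.06 (SE 0.19, edgeR adjusted p = 0.0201), and a median of 0.05. Wnt9a passed in 0 of the 6 fits that left out a library, with log2 fold changes of 1.0 to 1.16.

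A further set of genes differed between 24 h and 12 h, while the 24 h level did not pass against Scm. Gsta4, a glutathione transferase that conjugates lipid aldehydes, had 119, 109 and 125 CPM at 12 h and 33.8, 38.4 and 41.1 CPM at 24 h (log2 difference -1.64, SE 0.1, edgeR adjusted p = 3.56e-07). Against Scm its 24 h value was 0.08 (edgeR adjusted p = 0.938). Nqo1, a quinone reductase and a target of NRF2, had 329.8 to 344 CPM at 12 h and 151 to 177 CPM at 24 h (-1.05, SE 0.11, edgeR adjusted p = 0.000258), and Ptgr1 fell by 1.25 between the times (SE 0.13, edgeR adjusted p = 0.000258). Cyp1a1, a target of the aryl hydrocarbon receptor, had 2.07 to 2.85 CPM at 12 h and 0.12 to 0.633 CPM at 24 h (-2.75, SE 0.45, edgeR adjusted p = 0.0167), and its value against Scm was -1.93 (edgeR adjusted p = 0.0938). In the other direction, Asns, asparagine synthetase, had 53.1 to 56.4 CPM at 12 h and 93.2 to 100.1 CPM at 24 h (0.85, SE 0.16, edgeR adjusted p = 0.0384), with 0.013 against Scm. Slc7a5, an amino acid transporter gene, was likewise higher at 24 h than at 12 h, by 0.70 (SE 0.13, edgeR adjusted p = 0.0304). When 1 library was left out, Gsta4, Nqo1 and Ptgr1 passed in 6 of 6 fits, Cyp1a1 in 2, and Asns and Slc7a5 in 0. These directions were not particular to the exchange into Rcm. From R-Scm 12 h to R-Scm 24 h, mean levels went from 41.3 to 21.8 CPM for Gsta4 and from 228 to 121 CPM for Nqo1. They went from 51.4 to 25.3 CPM for Ptgr1, 1.01 to 0.668 CPM for Cyp1a1, 61.1 to 94.3 CPM for Asns and 125 to 224 CPM for Slc7a5. Those differences were not tested, and the libraries overlapped for Cyp1a1 and Asns.

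For a pair of DEGs the fold change does not describe the gene well. The entry with the largest fold was 1 of 3 that carry the symbol Ndor1 (ENSMUSG00000115018, chr2:25244819-25246863, minus strand), with 0.0535, 0.901 and 1.17 CPM in Scm and 12.3, 14.6 and 14.2 CPM at 24 h (log2 fold change 4.34, SE 0.82, edgeR adjusted p = 0.0321). Its exons overlap on the same strand with another Ndor1 entry (ENSMUSG00000006471), which had 32.2, 30.5 and 34.2 CPM in Scm and 21.9, 20.6 and 22.2 CPM at 24 h. The 3 entries summed to 33.9, 32.0 and 35.4 CPM in Scm and 34.2, 35.5 and 36.5 CPM at 24 h, with a log2 fold change of 0.07 (edgeR adjusted p = 0.953), so that Ndor1 as a whole did not pass. With overlapping entries summed, the number of DEGs was 51, with 33 higher and 18 lower.

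**Figure D5:**
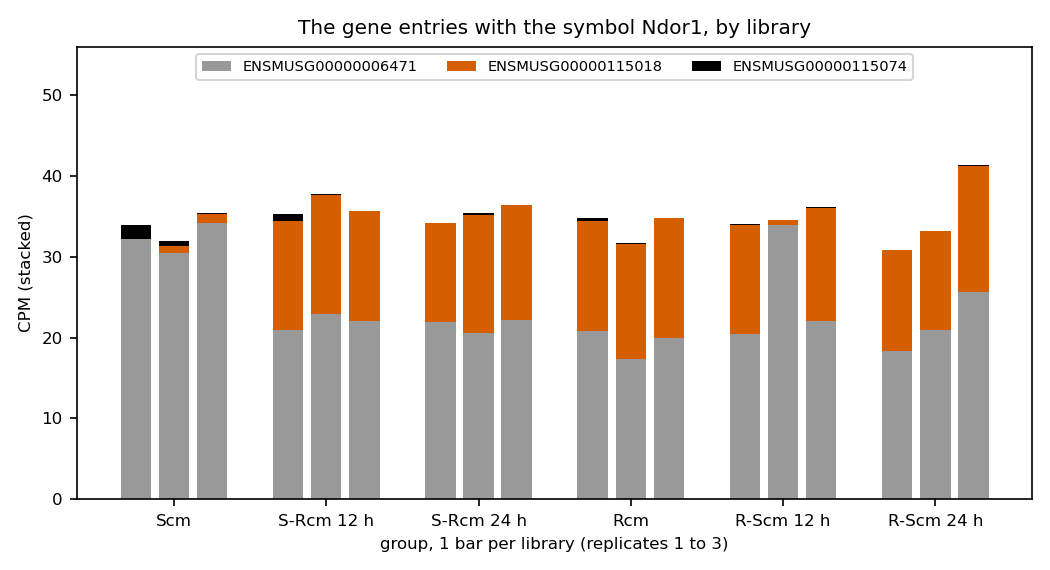
Stacked bars of CPM (vertical axis) for the 3 gene entries named Ndor1 in each library of the 6 groups (horizontal axis). The entry called a DEG holds under 1.2 CPM in the Scm libraries and 12.3 to 14.6 CPM in S-Rcm 24 h, while the sum is 32.0 to 35.4 CPM in Scm and 34.2 to 36.5 CPM in S-Rcm 24 h.

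Kirrel, a cell adhesion gene at chr3:87078593-87174747 on the minus strand, had 434, 385 and 414 CPM in Scm and 106, 95.1 and 95.5 CPM at 24 h (log2 fold change -2.05, SE 0.34, edgeR adjusted p = 0.0167). Other groups held both levels or the upper one: at 12 h the libraries had 368, 389 and 91.4 CPM, and in Rcm 421, 396 and 445 CPM. It passed in 0 of the 6 fits that left out a library, with log2 fold changes of -2.11 to -2.01 and edgeR adjusted p of 0.0823 without replicate 1 of S-Rcm 24 h. No entry of the annotation overlapped it on the same strand, and what sets its 2 levels was not tested.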

How the data were processed

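RNA (RNeasy mini kit) was sequenced by the authors as paired-end mRNA libraries and mapped to GRCm38 with HISAT2; the counting tool and its use of strand are not given in the sources used here. The deposited values are raw counts per gene for 55487 gene entries in 18 libraries, and 241 entries stand at exactly 1 in every library. Columns were matched to samples by their descriptions, and 0 columns were left out.

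Genes were kept by filterByExpr in edgeR (version 4.0.16, R 4.3.3), which left 15381. TMM scaling and a robust quasi-likelihood model with 1 mean per group were fitted to all 18 libraries (12 residual degrees of freedom), with Benjamini-Hochberg adjustment over all genes tested. CPM use the TMM library sizes, and relative log2 values a prior count of 2. DESeq2 (version 1.42.0) served as an alternative. The model code was tested on simulated counts. Reads carry no molecular identifiers, so that depth limits counting error only, and rare genes were measured with little precision. An exact permutation test of 3 against 3 libraries cannot go below p = 0.1 and was not used. Gene positions and shared 75-base words came from GENCODE M21 on GRCm38, and promoter windows from RefSeq on GRCm38.p6. The rule named DEGs of S-Rcm 24 h against Scm that have a gene symbol, up to 30 in each direction by adjusted p, the members of the gene lists, Apoh, Srebf1, Srebf2, Scd1, Gpx4 and Slc7a11. Genes given for the tests against 12 h and Rcm that are outside it (Mid1ip1, Csrp1, Gsta4, Nqo1, Ptgr1, Cyp1a1 and Slc7a5) were chosen after their values were seen. The comparison, the members and the lists were chosen with earlier results of these data known. Values of some list members are not reported here, although the list counts and medians include them.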

Additional observations from a re-analysis of the deposited data

Results flagged for a closer look

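The genes below are DEGs of S-Rcm 24 h against Scm whose level also differed between 24 h and 12 h of the exchange in edgeR's quasi-likelihood test with Benjamini-Hochberg adjustment. Acta2 was higher at 24 h than at 12 h by 1.17 on the log2 scale (adjusted p = 0.0215), and its change against Scm was not called without replicate 1 of S-Rcm 24 h (0.66, adjusted p = 0.187). Cbr2 was higher at 24 h by 1.07 (adjusted p = 0.0439) in edgeR's test. Msmo1 (0.92, adjusted p = 0.0167), Acat3 (0.88, adjusted p = 0.0335) and Fdps (0.78, adjusted p = 0.0439) were higher at 24 h in edgeR's test, and each was the highest in replicate 1 of S-Rcm 24 h. Both times share the Scm libraries, and the test between them does not use those libraries. With 1 library left out, the difference between the times passed in 2 of 6 fits for Acta2 and Msmo1, in 1 for Acat3 and in 0 for Cbr2 and Fdps.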

How the results depend on the processing

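The number of DEGs between S-Rcm 24 h and Scm (52) stayed between 50 and 62 under RLE or upper-quartile scaling, other filters on low counts, the replicate block by title number, the adjusted p alone, and overlapping entries summed, an alternative chosen after seeing the data (51). It was 7 at an adjusted p under 0.01, 90 with edgeR on the 6 libraries, 224 with DESeq2 on the 6 libraries and 136 with DESeq2 on 18, and 6 to 28 when 1 library was left out. Between 24 h and 12 h (24 DEGs) the counts were 8 at an adjusted p under 0.01, 113 and 86 with DESeq2 on 6 and 18 libraries, and 8 to 16 with 1 library left out (8 without replicate 1 of S-Rcm 24 h). Against Rcm (34 DEGs) they were 3, 150 and 102, and 0 to 38 with 1 library left out; edgeR gave 0 without replicate 3 of S-Rcm 24 h, with 880 genes at an unadjusted p under 0.05, and 0 without replicate 2 of Rcm, with 762. Correlations of Scm and S-Rcm 24 h libraries with the same title number were 0.0618, 0.0145 and -0.0541. Those of the other pairs ran from -0.141 to 0.148. With 3 libraries in a group, these values cannot show whether the libraries were paired. The column numbers of S-Rcm 24 h do not all match its title numbers, so that a block by column number is partly tied to group. With the number of the columns as a replicate block, 11 DEGs were called against Scm and 0 against Rcm (752 genes at an unadjusted p under 0.05 in edgeR), and with the title number 50 against Scm. The cholesterol list's median of 0.59 was 0.68 under the block by column number and 0.49 to 0.65 with 1 library left out; that of the contractile list (0.95) was 0.89 to 1.05. Some values changed sign. The LXR list's median of -0.083 became 0.051 in edgeR on 6 libraries and -0.11 to 0.082 with 1 library left out. Slc7a11 (-0.23) moved widely, from -0.58 to 0.033, and was above 0 without replicate 1 of S-Rcm 24 h. Srebf1 (-0.046) stayed near 0, at -0.076 to 0.0016, and was above 0 without replicate 2 of S-Rcm 24 h. The named DEGs had 0 changes of sign, and 51 of 51 were called by DESeq2 on 18 libraries. The cause of these shifts was not tested.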
